A study of Mus musculus with 9 samples.

Results

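Lat and Grap2 encode signalling adaptors, and their messenger RNA is described here in 9 sequenced libraries of sorted mouse bone marrow cells. The genes were chosen by name, as adaptors of ITAM receptor signalling, and are 2 of the 2402 genes in the deposited table. The study sorted megakaryocyte progenitors (MkP), which give rise to the platelet-forming megakaryocytes, and haematopoietic stem cells (HSC) from the bone marrow of male C57BL/6 mice. All mice carried a Flt3-driven Cre and the mTmG reporter, which switches a cell and its descendants from Tomato (Tom) to GFP once Cre has acted. The labels give 2 samples of Tom+ MkP, 2 of Tom+ HSC and 2 of GFP+ MkP from old mice of 18 to 20 months, and 3 of GFP+ MkP from young mice, aged 3 months. Another field gives the age of the old mice as 20 months. The labels do not say whether separate animals were used, or how many were pooled. The 9 rows of the table carry no names, so no row was assigned to a sample, and no comparison between ages, reporter colours or cell types was made. Libraries are numbered 1 to 9 by row, as names with no order.

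Receptors with an ITAM, a short tyrosine motif in the receptor or its partner chain, recruit the kinases Syk or Zap70 once Src family kinases have phosphorylated it. Syk or Zap70 then phosphorylates Lat, a membrane-bound scaffold, on tyrosines that hold the small adaptor Grap2, also called Gads. Grap2 brings the scaffold protein encoded by Lcp2, and with it phospholipase C gamma, calcium release and Rap1 activation. In T cells this module works below the antigen receptor, and in platelets below the collagen receptor that the gene Gp6 encodes.

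In mm10 with the GENCODE M21 annotation, Lat is a protein-coding gene on the minus strand of chromosome 7, from 126363824 to 126369570, with 6 annotated transcripts. Grap2 is a protein-coding gene on the plus strand of chromosome 15, from 80572594 to 80652854, with 5 transcripts. Both were lowest in libraries 3 and 4, so the stretch from 250 bases before to 50 bases after each RefSeq gene start (GRCm38.p6) is shown, at chr7:126369519-126369818 on the minus strand and chr15:80623233-80623532 on the plus strand. The second of these lies inside the GENCODE span of Grap2, not at its start. Capitals mark GATA and GGAA on either strand, the core letters of motifs that GATA and ETS factors bind.
Lat promoter: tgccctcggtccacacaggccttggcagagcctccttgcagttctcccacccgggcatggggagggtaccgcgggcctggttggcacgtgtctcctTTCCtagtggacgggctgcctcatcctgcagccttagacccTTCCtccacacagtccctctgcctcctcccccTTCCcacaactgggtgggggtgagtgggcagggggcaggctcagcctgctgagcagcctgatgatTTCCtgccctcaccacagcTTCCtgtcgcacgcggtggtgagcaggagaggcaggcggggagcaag
Grap2 promoter: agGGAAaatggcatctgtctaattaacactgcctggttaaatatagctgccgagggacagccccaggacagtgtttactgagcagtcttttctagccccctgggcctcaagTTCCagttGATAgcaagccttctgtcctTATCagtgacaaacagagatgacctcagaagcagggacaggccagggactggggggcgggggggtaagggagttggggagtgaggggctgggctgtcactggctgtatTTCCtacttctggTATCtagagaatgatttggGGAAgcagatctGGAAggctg
The Lat stretch held 0 matches to GATA and 5 to GGAA, and the Grap2 stretch held 3 to GATA and 5 to GGAA, with no GATA match overlapping a GGAA match. GATA is in 57.9% and GGAA in 96.0% of the 32851 mouse promoters of this length. Among the 2293 promoters of genes in the table the shares are 45.8% and 95.5%. Gata1, the GATA factor of megakaryocytes and red cells, had 37.8 and 165 normalized counts in libraries 3 and 4 and 3626 to 8053 in the other 7. Fli1, an ETS factor, had 2031 and 1661 there and 2858 to 6091 in the other 7. Whether either factor acts on Lat or Grap2 was not tested.

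Lat was among the more abundant transcripts of the table. Its median over the libraries was 6816 normalized counts, place 120 of 2402 genes. Normalized counts are reads scaled per library by the authors, and 1 read was worth 0.724 to 1.96 of them. Lat had 8869, 6816, 1371, 1501, 8071, 7873, 11337, 6631 and 5932 normalized counts in libraries 1 to 9. It was lowest in libraries 3 and 4 and highest in library 7, and at least 1162 reads stood behind every value. The highest value was 8.27 times the lowest, with an exact 95% counting interval of 7.77 to 8.81. The gap between the seventh and eighth value in order, library 9 over library 4, was 3.95-fold (interval 3.73 to 4.19). Without libraries 3 and 4 the remaining 7 values lay within 1.91-fold of each other. In descending order (libraries 7, 1, 5, 6, 2, 8, 9, 4, 3), the neighbours 5 and 6 differed by a factor of 1.03 (interval 0.9901 to 1.06) and the neighbours 2 and 8 by 1.03 (0.986 to 1.07), so neither pair was apart beyond counting error. All other neighbours in the order of Lat were. Intervals cover counting error only, and no biological spread can be had without sample names. In such bulk libraries fewer cells that express a gene and less RNA per cell cannot be told apart.

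Grap2 was a scarce transcript with a much wider spread. It had 72.2, 51.0, 0, 1.14, 134, 108, 121, 12.6 and 20.3 normalized counts in libraries 1 to 9, which are 44, 26, 0, 1, 123, 77, 79, 12 and 28 reads. Libraries 3 and 4 were again the lowest, libraries 8 and 9 were the next lowest, as for Lat, and libraries 5, 6 and 7 were the highest. The share of all genes with libraries 8 and 9 next lowest was not counted. The median of 51.0 normalized counts was place 1492 of 2402, and 7 libraries reached 10. The 0 reads of library 3 allow up to 4.35 normalized counts, the upper end of its exact 95% interval, and the ratio of library 5 to it has a lower bound of 30.3. Against library 4, with 1 read, the ratio of library 5 was 117 with an interval from 20.6 to 4651. Library 5 over library 8 was 10.6-fold (interval 5.87 to 21.1) and over library 9 it was 6.59-fold (4.34 to 10.3). In descending order (libraries 5, 7, 6, 1, 2, 9, 8, 4, 3), counting error separated library 6 from 1 (1.49-fold, interval 1.02 to 2.21), library 2 from 9 (2.52-fold, 1.42 to 4.45) and library 8 from 4. The neighbours 5 and 7, 7 and 6, 1 and 2, 9 and 8, and 4 and 3 were not separated.

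**Figure D1:**
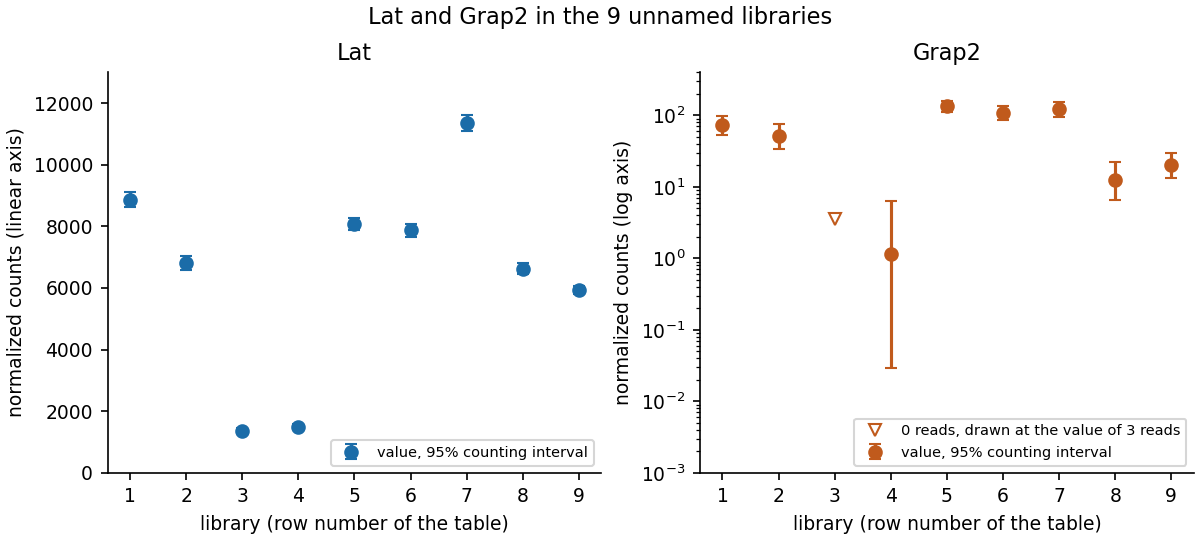
Normalized counts of Lat (left, linear axis) and Grap2 (right, log axis) in the 9 unnamed libraries; bars are exact 95% Poisson counting intervals and the open triangle marks 0 reads at the value of 3 reads. Outside libraries 3 and 4, both genes are lowest in libraries 8 and 9. Lat is 6631 and 5932 there against 6816 to 11337 in the other 5, and Grap2 is 12.6 and 20.3 against 51.0 to 134.

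Both genes exceeded a 4-fold range over the 9 libraries, as did 66.4% of the 2341 genes that reached 10 normalized counts in 2 or more libraries. On normalized counts with 1 added, Lat ranged 8.27-fold and Grap2 135-fold, and 59.2% and 96.3% of those genes had a narrower range. Reads of both genes differed between libraries beyond counting error (chi-square test of reads against 1 rate, Benjamini-Hochberg adjusted), as did those of 98.7% of genes. Libraries 3 and 4 were the 2 lowest for both members, as they were for 41.0% of genes. They stayed the 2 lowest under scaling to the table total and under median-of-ratios scaling. Scaling to the table total moved single libraries by -0.56 to 0.64 on the log2 scale. It made the range of Lat 4.18-fold, put library 1 highest for Lat at 7366 and turned the order of libraries 3 and 4, at 1784 and 1760. It also put libraries 8 and 9, at 6325 and 5149, above library 2, at 5110, for Lat.

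The proportion of Grap2 to Lat, which no scaling of a library can change, was not the same in every library. There were 8.14, 7.49, 0, 0.762, 16.6, 13.7, 10.7, 1.90 and 3.42 Grap2 reads per 1000 Lat reads in libraries 1 to 9. Libraries 5, 6 and 7 had the most, libraries 3, 4, 8 and 9 the fewest. Library 8 had 1.90 (interval 0.980 to 3.32) and library 5 had 16.6 (13.7 to 19.8), an 8.73-fold ratio with an interval of 4.81 to 17.4 (4.84-fold with library 8 left out). The interval of library 3 reached 3.18 and that of library 4 reached 4.25, on 0 and 1 reads of Grap2. Lat itself was little lower in library 8 than in library 5, by a factor of 0.822 (interval 0.794 to 0.850), where Grap2 was lower by a factor of 0.0941 (0.0473 to 0.170).

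**Figure D2:**
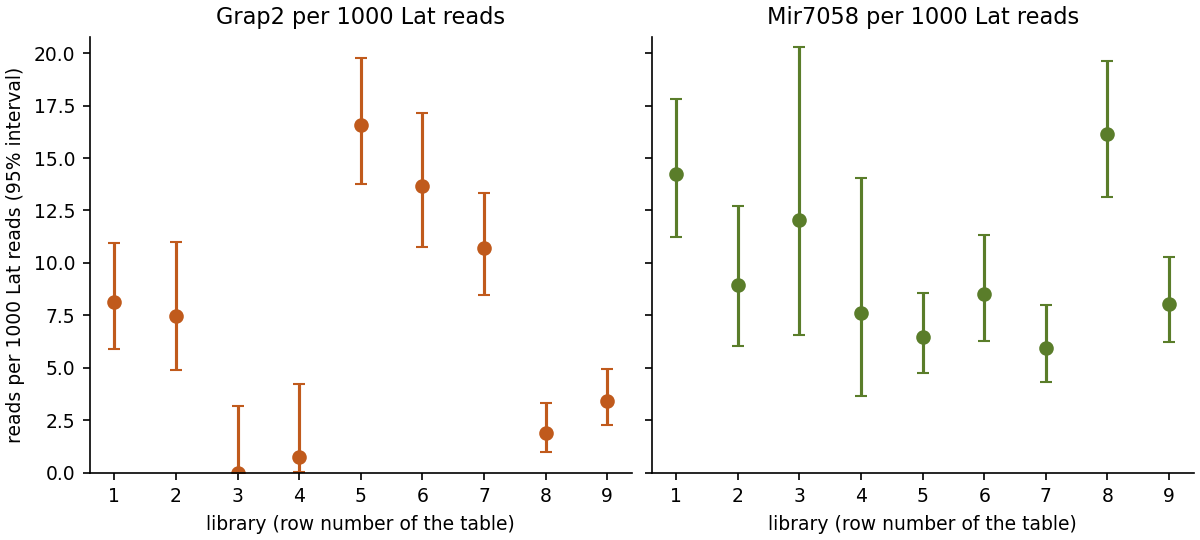
Reads of Grap2 (left) and of Mir7058, a microRNA gene inside Lat (right), per 1000 Lat reads in each of the 9 libraries, with exact 95% binomial intervals. Grap2 spans 0 to 16.6 and is at most 3.42 in libraries 3, 4, 8 and 9, while Mir7058 spans 5.96 to 16.1.

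Per kilobase of annotated exon, the adaptors were far apart in level. The median of Lat was 2463 normalized counts per kilobase (2767 bases of merged exons) and that of Grap2 was 8.17 (6243 bases). Among Lat, Grap2 and the 25 pathway genes whose exon length could be matched, Lat was place 2, after Rap1b with 16426, and Grap2 was place 20. Dok2, an adaptor that dampens such signals, followed Lat with 1589. Over the 7 libraries with at least 10 Grap2 reads, Lat exceeded Grap2 per kilobase by 136-fold (library 5) to 1189-fold (library 8). Library 4 gave 2971-fold on 1 read of Grap2, and library 3 had 0 reads of it. These lengths merge all annotated transcripts, and the transcript actually used was not measured.

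A microRNA gene, Mir7058, lies on the same strand inside Lat, at chr7:126367971-126368045, and has its own column in the table. It was taken up because of its place, after the values had been seen. Its hairpin is exactly the 75-base intron 7 of the 12-exon transcript Lat-201, between exons 7 and 8, and intron 6 of Lat-206, and it lies within a retained-intron transcript, Lat-202. The hairpin is shown because its first and last bases, in capitals, are the GU and AG of that intron. In the mature forms capitals mark the seed, bases 2 to 8.
Mir7058 hairpin: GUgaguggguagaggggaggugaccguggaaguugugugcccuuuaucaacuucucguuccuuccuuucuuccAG
miR-7058-5p: uAGAGGGGaggugaccguggaagu
miR-7058-3p: cUCGUUCCuuccuuucuuccag
Mir7058 had 126, 60.8, 16.5, 11.4, 52.2, 67.1, 67.6, 107 and 47.8 normalized counts in libraries 1 to 9. It was lowest in libraries 3 and 4, as Lat was, and highest in libraries 1 and 8. Reads from the unspliced or retained intron of Lat and from the microRNA hairpin cannot be told apart in this table. Per 1000 Lat reads there were 5.96 to 16.1 Mir7058 reads (median 8.53), a 2.71-fold range. Libraries 8 and 1 had the most, 16.1 (interval 13.1 to 19.6) and 14.2 (11.2 to 17.8). Library 7 had the fewest, 5.96 (4.33 to 8.01).

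Of 115 further genes of ITAM signalling in 5 lists, 27 were taken from the table and all of them passed the filter on low values. Gp6 and Lcp2 were in the lists but were not found in the table. Their median range was 7.32-fold, against 6.16-fold over all 2341 genes. A range of at least 4-fold was seen in 20 of them (74.1%, with 66.4% over all genes), or in 7 (25.9%, with 20.8% over all genes) without libraries 3 and 4. Libraries 3 and 4 were the 2 lowest for 16 of the 27 (59.3%, with 41.0% over all genes) and the 2 highest for 8 (29.6%, with 51.0% over all genes). Lat and Grap2 are of the first kind, with libraries 3 and 4 lowest. Some of the 16 were placed on low values, such as Lilrb4, at 1.18 and 0 in libraries 3 and 4 and 1.54 in library 7.

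Upstream of Lat, 1 receptor chain and 3 kinases are described. Syk, the kinase that phosphorylates Lat in platelets, had 374, 308, 57.8, 61.8, 367, 464, 232, 344 and 309 normalized counts in libraries 1 to 9. It was lowest in libraries 3 and 4, and library 6 was 8.03 times library 3 (interval 5.94 to 11.1). Src was low throughout, at 7.08 to 42.4. Lck, the kinase that starts ITAM signalling in T cells, went the other way, with 44.8 and 43.5 in libraries 3 and 4 and 6.99 to 26.8 in the other 7. The Fc receptor gene Fcgr4 did not exceed 17.4.

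In the list of adaptors and partners around Lat and Grap2, which is broader than the complex itself, Fyb and Map4k1 were the abundant ones. Fyb, an adaptor that binds the Lcp2 protein and links it to integrins, ranged 3.28-fold around a median of 2538. Map4k1, a kinase that binds the same complex and limits it, had 3327, 3134, 1115, 1508, 4882, 3855, 5810, 2455 and 3026 normalized counts in libraries 1 to 9, a 5.21-fold range. For both genes libraries 3 and 4 were the lowest. Sh2b3, an adaptor that restrains cytokine receptor signals, was highest there, at 261 and 196 against 34.8 to 63.7 in the other 7. Cbl, a ubiquitin ligase, stayed between 12.3 and 46.0.

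Downstream, 9 genes were measured. Libraries 3 and 4 were the 2 lowest for 5 of them and the 2 highest for 4 (41.0% and 51.0% over all genes). The first 5 were 4 genes of the Rap1 and Rasgrp families and the GTPase Hras. Rap1b, the small GTPase that activates platelet integrins, ranged 12.2-fold (interval 11.8 to 12.6), from 5628 in library 3 to 68694 in library 7. Rasgrp2, the calcium-sensitive exchange factor for Rap1, had 2034, 2296, 484, 440.5, 2587, 2821, 3594, 2805 and 3133 normalized counts in libraries 1 to 9, with libraries 3 and 4 the lowest. Rap1a ranged only 2.28-fold and Rasgrp4 2.80-fold. Hras had 7.08 and 10.3 in libraries 3 and 4, close to the 14.8 of library 1. The 4 genes with libraries 3 and 4 highest were Orai1, Pik3r1, Mapk3 and Map2k1. Orai1, the store-operated calcium channel, reached 623 and 535 there, against 64.0 to 161 elsewhere, and Pik3r1, a regulatory subunit of phosphoinositide 3-kinase, reached 1377 and 344, against 51.1 to 208. Mapk3 and Map2k1, kinases of the ERK cascade, ranged 3.67-fold and 3.03-fold.

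The list of regulators and phosphatases, not all of which are known to act on this pathway, included 2 well-measured genes of wide range, Ubash3a and Sla. Ubash3a, which dampens antigen receptor signals in T cells, had 709, 597, 3.54, 8.01, 918, 813, 824, 89.1 and 120 normalized counts in libraries 1 to 9. Library 3 had 3 reads, and the ratio of library 5 to it was 259 with an interval from 88.5 to 1261. Libraries 8 and 9 lay between, and library 5 over library 8 was 10.3-fold (interval 8.24 to 13.03). Its relative Ubash3b, a phosphatase that acts on Syk in platelets, ranged 4.63-fold around a median of 726, and was 634 and 552 in libraries 8 and 9. Inpp5b, an inositol polyphosphate 5-phosphatase, was also low in libraries 8 and 9, at 561 and 645, with 162 and 239 in libraries 3 and 4 and 1242 to 1504 in the other 5. Sla, an adaptor that lowers antigen receptor levels in T cells, ranged 51.7-fold (interval 40.7 to 66.7), from 81.4 in library 3 to 4208 in library 1, and had 3555 and 2368 in libraries 8 and 9. Dok2 ranged 6.39-fold and was lowest in libraries 3 and 4, whereas Dok1 was highest there, at 2200 and 2975 against 850.4 to 1692. Ptprc, the phosphatase CD45, was also highest there, at 288 and 293. G6b, an inhibitory platelet receptor, did not exceed 23.0.

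**Figure D3:**
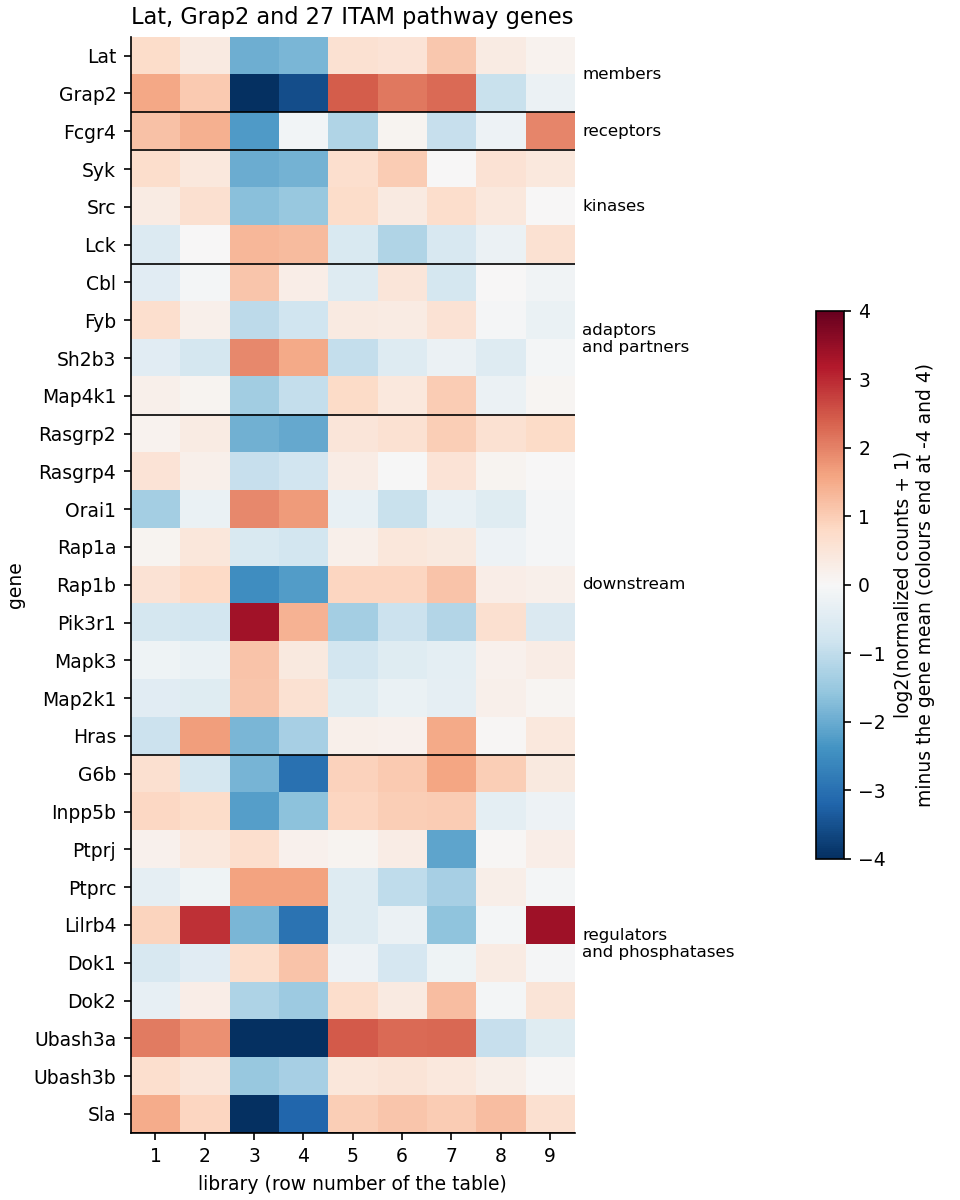
Rows are Lat, Grap2 and the 27 pathway genes grouped by role, columns are the 9 libraries, and colours give log2(normalized counts + 1) minus the gene's mean over the libraries. Libraries 3 and 4 are the 2 lowest for Lat, Grap2 and 16 of the 27 genes. Among these, Grap2, Ubash3a, Inpp5b, Fyb and Rap1a are also below their mean in both libraries 8 and 9. Fyb in library 8 and Rap1a in library 9 are only just below it. Libraries 3 and 4 lower these means, and Lat, Rap1b and Ubash3b are above theirs in libraries 8 and 9 though lower there than in the other 5.

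The genes most like each member were sought by the root-mean-square difference of mean-centred log2 profiles (normalized counts + 1) over the 9 libraries, among named genes with a median of at least 100. Nearest to Lat were Haus5, a subunit of the augmin complex of the spindle, the transcript AK141205, Tex30, Hmgb3, a high mobility group protein, and Rad54l, a recombination repair protein, at 0.23 to 0.25 log2 units. The median over the genes compared was 0.72. Haus5 had 1201, 1052, 180, 259, 1366, 1151, 1630, 1117 and 1362 normalized counts in libraries 1 to 9. Of the pathway genes, Rap1b (place 23 of 1242, 0.31), Rasgrp2 (place 27, 0.32) and Ubash3b (place 28, 0.32) were closest to Lat. The list was not stable, since each of the 5 genes stayed among the nearest in only 7 to 13 of 16 alternatives. None of the 5 did without libraries 3 and 4, and none did with library 7 alone left out.

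Nearest to Grap2 was Ubash3a, at 0.44 log2 units against a median of 2.05 over 1243 genes, and it stayed among the nearest 5 in 14 of 16 alternatives. Next came Slc35d3, a transporter-like protein needed for platelet dense granules, Samd14, Rapsn, which clusters acetylcholine receptors in muscle, and Stx11, a syntaxin of granule release in cytotoxic cells and platelets, at 0.46 to 0.53. Slc35d3 had 1872, 979, 9.44, 19.5, 2037, 1985, 2231, 329 and 356 normalized counts in libraries 1 to 9. It was high and low in the same libraries as Grap2, which its selection by profile entails. The 5 genes each stayed nearest in 7 to 14 of 16 alternatives, so this list was not stable either. Only 2 of them were kept under scaling to the table total, and 1 with a pseudocount of 5. Lat and Grap2 themselves were 1.495 log2 units apart.

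**Figure D4:**
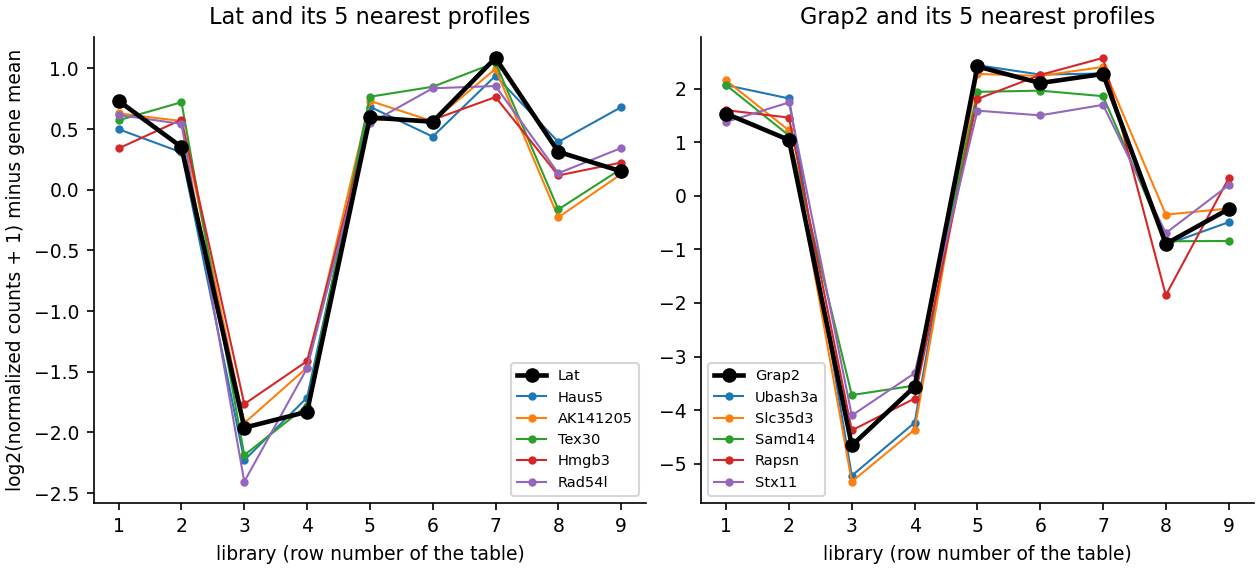
Profiles of Lat (left) and Grap2 (right) in black with their 5 nearest genes, as log2(normalized counts + 1) minus the gene mean, by library; lines join the values of a gene and imply no order of libraries. All profiles are lowest in libraries 3 and 4, and all but that of Haus5 are also lower in libraries 8 and 9 than in the other 5. The drop in libraries 8 and 9 is small for Lat (6631 and 5932, against at least 6816) and large for Grap2 (12.6 and 20.3, against at least 51.0). The genes were chosen for likeness, so the shared shape is no separate result.

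Markers of cell types moved with these values, and their part in the levels of Lat and Grap2 was not tested. All 17 measured megakaryocyte markers of 26 had libraries 3 and 4 as the 2 lowest (41.0% over all genes), and their summed level was 12752 and 16702 normalized counts there and 112300 to 204764 in the other 7. All 12 measured stem cell markers of 23 had them as the 2 highest (51.0% over all genes), with sums of 52338 and 45873 there and 1896 to 13371 in the other 7. Libraries 8 and 9, the next lowest after libraries 3 and 4 for both Lat and Grap2, had megakaryocyte sums of 140911 and 112300 and stem cell sums of 13371 and 4286. A single gene, Trim47, gave much of the stem cell sums, with 23789 and 27479 in libraries 3 and 4 and 9887 and 1969 in libraries 8 and 9. Likewise Itga2b gave much of the megakaryocyte sums outside libraries 3 and 4, with 68308 and 45798 in libraries 8 and 9. It had 1616 and 6543 in libraries 3 and 4. Of 27 T cell markers 4 were measured, and their sum of 520 to 5119 was mostly Cd27 and Gata3, highest in libraries 3 and 4. Cd4 was at 0 in libraries 3 and 7 and at most 39.8. The genes of the T cell receptor complex were part of this list, and none was among the 4 measured. Fcer1a, the only measured gene of 12 for mast cells and basophils, which also use both adaptors, was at 0 in libraries 3, 5 and 7 and reached 103 in library 1.

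Other lists moved too, and their part was likewise not tested. Of 18 erythroid markers 5 were measured, with libraries 3 and 4 the 2 lowest for 3 of them (41.0% over all genes). Sptb, 1 of the 3, was at 0 in both and at most 27.9 elsewhere. The sum of the 5 markers was 290 and 309 in libraries 3 and 4 and 5816 to 8535 in the other 7, mostly the water channel gene Aqp1. Rhd, a blood group gene, had 4.72 and 9.15 normalized counts in libraries 3 and 4, 3.15 and 98.5 in libraries 8 and 9, and 212 to 1187 in the other 5. Ermap and Add2 were low in the same 4 libraries as Grap2, while Aqp1 had its highest values in libraries 8 and 9. Of 12 NK cell markers 2 were measured, and they ran opposite ways. Nkg7, a granule protein gene of cytotoxic cells, had 185 and 667 in libraries 3 and 4, 2153 and 6507 in libraries 8 and 9 and at least 13914 in the other 5, whereas Klrb1c reached 493 and 469 in libraries 3 and 4 and was 0 to 68.2 elsewhere. Of 12 granulocyte and monocyte markers 4 were measured, and their sum, mostly Prtn3, was 12916 and 12329 in libraries 3 and 4 and 366 to 2142 in the other 7. In that list Csf1r was at 0 in library 3 and Cebpa at 0 in libraries 3 and 4. The only measured B cell marker of 10 ranged 3.26 to 12.3.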

How the data were processed

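The deposited table holds normalized counts, that is, a signal which the authors scaled by library, for 2402 gene columns and 9 unnamed rows. The submitters' processing notes name mm10, Bowtie2, STAR and DESeq without roles or versions. The counter, strand setting, scaling method and how genes were selected are not stated there or in the labels. Within each row the values were whole multiples of 1 step, and division by it returned whole reads (to within 0.1 read) for 100% of them, with 1790670 to 4373460 reads per library over these genes, not library depths. None of 36 pairs of libraries agreed within sampling noise; the closest had 13.4 times the chi-square per gene of counting alone.

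Intervals are exact (conditional binomial or Poisson, 95%). The chi-square test covered 2341 genes. Planned comparisons between groups could not be run. Genes named are Lat, Grap2, measured pathway genes and the 5 nearest to each member. Single marker genes, Gata1 among them, Mir7058 and the neighbour Nfatc2ip fall outside this rule and were picked after their values were seen. Gene lists were matched by symbol or a RefSeq synonym, and promoters and microRNAs come from RefSeq tables (2 of 2 members matched). A list gene is not reported here and was left out of all counts of the lists. The members and lists were chosen with earlier results of these data known. Scripts used Python 3.11.15, pandas 2.3.3 and scipy 1.17.1, and were tested on simulated data.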

Additional observations from a re-analysis of the deposited data

How the results depend on the processing

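Libraries 3 and 4 decide the width of the ranges. Without them Lat ranged 1.91-fold and Grap2 9.92-fold, the median range of the pathway genes was 2.29-fold with 7 genes at 4-fold or more, and 20.8% of all genes had such a range. Scaling to the table total gave 4.18-fold for Lat, 88.7-fold for Grap2 and 23.9% of all genes with libraries 3 and 4 lowest; median-of-ratios scaling gave 13.5-fold for Lat and 70.1% of all genes at 4-fold or more. The range of Grap2 rests on 0 and 1 reads, and was 268-fold with a pseudocount of 0.5, 27.7-fold with 5 (61.9% of all genes at 4-fold or more) and 38.9-fold when any value below 3 reads was set to 3, a setting chosen after seeing the data. Leaving out each library in turn gave 6.47- to 8.27-fold for Lat, 62.9- to 135-fold for Grap2, 4.84- to 8.73-fold for the Grap2 to Lat ratio (over the 7 libraries with at least 10 Grap2 reads, so not 3 and 4) and 50.1% to 66.1% of all genes at 4-fold or more. No paired analysis was possible because the rows carry no replicate numbers.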

Other observations

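Besides Mir7058, the only gene of the table within 100 kb of Lat was Nfatc2ip, on the same strand at chr7:126382854-126396737. It had 3.54 and 4.58 normalized counts in libraries 3 and 4 and 7.34 to 18.1 in the other 7. Grap2 had no table gene that overlaps it in GENCODE M21.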
